A study of Mus musculus with 12 samples.

Results

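Caspases are cysteine proteases that cut proteins after aspartate and are made as inactive precursors. The apoptotic members act in a relay, in which initiators such as caspase-8 (below death receptors) and caspase-9 (on the Apaf1 apoptosome) start the process and effectors such as caspase-6 carry it out, while caspase-1 belongs to the inflammatory branch and is activated on inflammasomes. Thymocytes that meet a strong agonist can be removed by apoptosis, mainly through the mitochondrial branch that is governed by the Bcl2 family.

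The genes described here are Casp1, Casp2, Casp6, Casp8 and Casp9, 5 genes read by 9 of the 12422 probe sets of the array that are not controls. The probe sets were selected by gene symbol in the platform annotation, and intensities under 8 were marked. The genes were picked with the values of these same arrays known, so differences of their probe sets between the groups are given as a description, and the p-values beside them support nothing. Casp1, Casp6 and Casp8 have 1 probe set each, Casp2 has 2 and Casp9 has 4.

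The 12 Affymetrix mouse arrays hold thymocytes from RTOC, reaggregate thymic organ cultures, at day 6. HY_high is 4 arrays of thymocytes with the HY T cell receptor and Smcy peptide at 1e-05 M, HY_low is 4 arrays with the same receptor and Smcy peptide at 1e-07 M, and OT1 is 4 arrays of thymocytes with the OT1 receptor, for which no peptide is named. Both receptors recognise peptide on MHC class I, HY a peptide of a male antigen and OT1 one of ovalbumin. Arrays carry the numbers 1 to 4 in each group, and arrays of the same number resembled each other. The titles of HY_high and HY_low arrays also carry different letters that are not explained, so the dose and what the letters mark cannot be told apart. HY_low and OT1 differ in receptor and peptide at once. The strain, sex and age of the mice, the driver of the transgenes and the source of the stroma are not given in the sources used here. Nothing says that arrays of a group came from separate cultures, so each p-value reflects no more than the spread among these arrays. In such samples fewer cells of a type and less RNA per cell cannot be told apart.

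Across the deposited table the median intensity was 3.71, and array medians lay between 3.33 and 3.97. A share of 66.4% of all values lay under 8 and 15.3% were at 1, the lowest value. The number of arrays limits the precision. Among the T lineage markers, 9 of 13 measured genes had a geometric mean of 8 or more in HY_high, 10 in HY_low and 10 in OT1. Of the 13 genes 2 were higher in HY_high than in HY_low, with a median log2 difference of -0.34, and 3 were higher than in OT1, with a median of -0.44. The summed T lineage level ran from 762 to 1370 in HY_high, against 1640 to 3470 in HY_low and 1800 to 3000 in OT1. The coreceptor chain Cd8b1 had geometric means of 4.52 in HY_high, 644 in HY_low and 693 in OT1, and the other chain Cd8a 157, 339 and 340 in the same order. Thy1, a surface protein of T cells, had 234, 555 and 541, Cd2 had 95.5, 203 and 197, and Cd5 had 36.1, 61.1 and 50.4, while Cd3d, a chain of the CD3 complex, had 98.3, 101 and 87.3. The part of these differences in the caspase values was not tested. B cell markers had 2 of 6 measured genes at 8 or more in every group, Cd79b and Ighm. Thymic epithelial markers had 0 of 8 and macrophage and dendritic cell markers 0 of 19 at that level in any group. Fibroblast markers had 2 of 9 in every group, Col1a1 (10.8 in HY_high, 11.0 in HY_low and 8.64 in OT1) and Col1a2 (17.9, 26.5 and 28.7). Endothelial markers had 1 of 5 in HY_high, Pecam1 (9.76), and 0 in HY_low and OT1.

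Of the 108 caspase values, 69 lay under 8. Casp1 and the Casp9 probe set 100368_at were under 8 on all 12 arrays, and 6 of the 9 probe sets were under 8 on 9 or more arrays. The values nearest to the mark were 7.97 for Casp6 on HY_low array 2 and 8.13 for Casp8 on OT1 array 2. A probe set entered the fit if the mean of its log2 values corresponded to more than 1.76, which 8 of the 9 did. The exception was Casp9 100368_at.

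**Figure D1:**
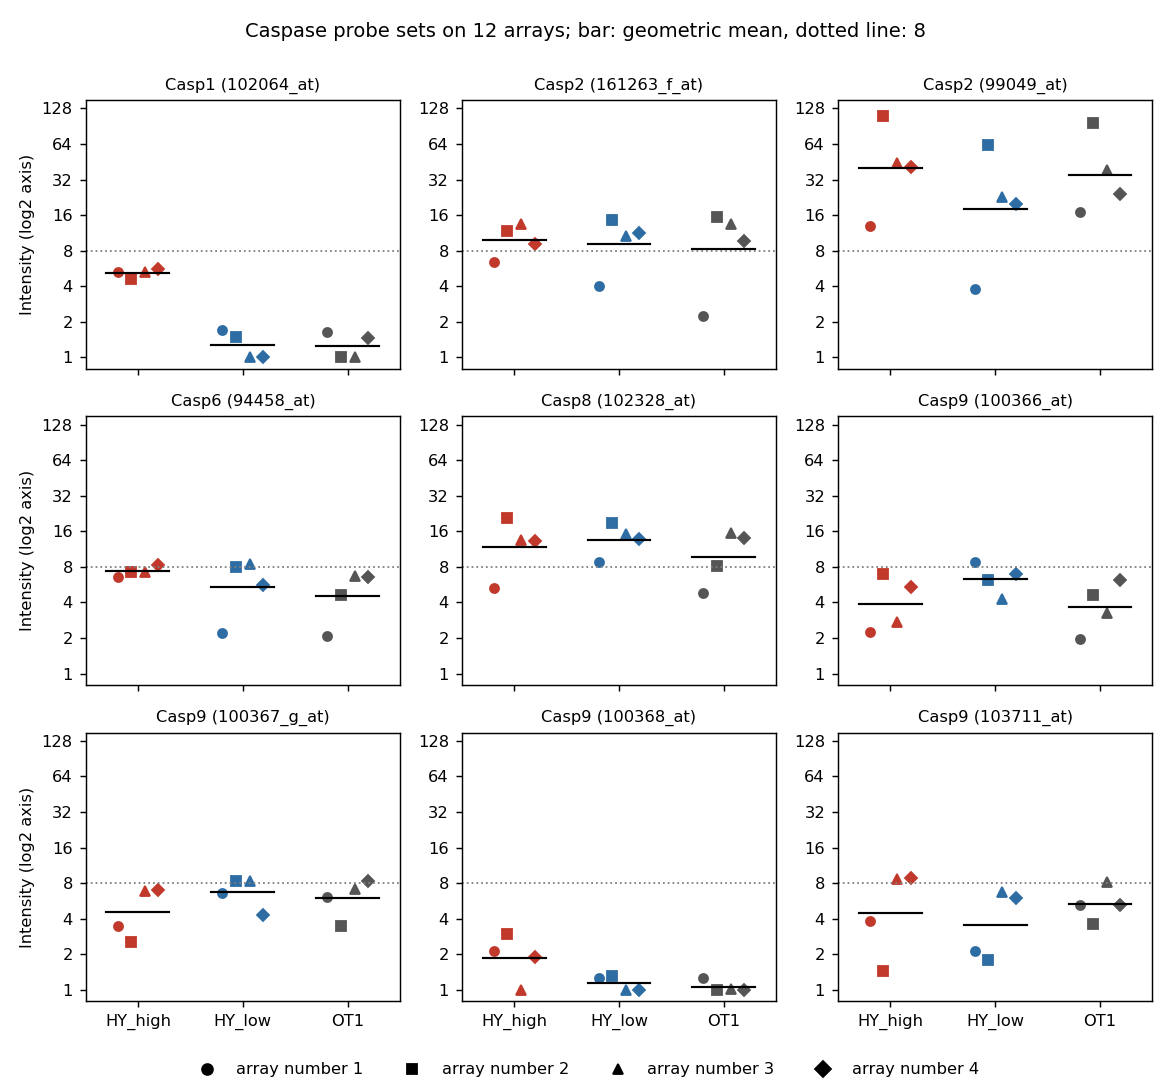
Intensity (log2 axis) of the 9 caspase probe sets on each array, in HY_high, HY_low and OT1; marker shapes are the array numbers, bars are geometric means and the dotted line is the mark at 8. Casp1 sits between 4.56 and 5.56 in HY_high and at 1.70 or less in the other groups, while Casp2 99049_at spreads from 3.76 to 111 with array 1 lowest in each group.

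Casp1 encodes the inflammatory caspase that matures interleukin-1 beta and interleukin-18 and cleaves gasdermin D. Its probe set 102064_at had intensities of 5.29, 4.56, 5.23 and 5.56 on HY_high arrays 1 to 4, against 1.70, 1.49, 1 and 1 on HY_low arrays and 1.64, 1.01, 1 and 1.47 on OT1 arrays. All HY_high arrays lay above all arrays of the other groups, and HY_low and OT1 overlapped. Within HY_high the spread was small, with an SD of 0.12 on the log2 scale (n = 4), against 0.39 in HY_low and 0.37 in OT1. The geometric means were 5.15 in HY_high, 1.26 in HY_low and 1.25 in OT1.

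The log2 difference of Casp1 was 2.03 ± 0.40 (SE, n = 4 per group) in HY_high against HY_low, with a limma adjusted p of 0.133, or 0.0383 with the array number as a block. Within the numbers 1 to 4 the difference was 1.64, 1.61, 2.39 and 2.48. Against OT1 it was 2.04 ± 0.40 (limma adjusted p = 0.0494, or 0.0133 with the block), with 1.69, 2.17, 2.39 and 1.92 within the numbers. HY_low against OT1 gave 0.01 ± 0.40 (limma adjusted p = 1), with 0.05, 0.56, 0.00 and -0.56 within the numbers. The comparisons share arrays, so the first pair of values are not separate observations.

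Beside Casp1, the calls over all features were few. In HY_high against HY_low, 0.0115% of the 8695 probe sets tested were called higher by limma, or 0.23% with the block, and 1.24% were higher with no overlap between the groups. In HY_high against OT1 the shares were 0.138%, 1.13% with the block, and 1.52%. Casp1 was the 1 caspase probe set of 8 tested that was called in HY_high against OT1, and the 1 called against HY_low with the block, where 0 were called without it (1 of 8 had an unadjusted p under 0.05, beside 2.96% of all tested probe sets). In HY_low against OT1 0 of 8 were called with or without the block (1 with and 0 without it had an unadjusted p under 0.05, beside 8.37% and 2.65% of all tested probe sets), beside 0.092% and 0.023% of all tested probe sets with and without it. Since Casp1 was picked with these values known, nothing is read from that. It entered the fit through HY_high alone, as its means in HY_low and OT1 lie under the filter at 1.76.

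All of these values are low. On HY_high arrays Casp1 stood at percentiles 54.5 to 58.8 of the array's own probe sets, against 0.00 to 28.9 in HY_low and 0.00 to 28.5 in OT1. On log2 of the intensity plus 16, a scale that compresses low values, the difference was 0.29 against HY_low (limma adjusted p = 0.044) and 0.29 against OT1 (0.0264). With intensities under 8 set to 8 it had no value. In the fit without the block, leaving out any 1 of the 12 arrays ended the call against OT1, with limma adjusted p from 0.0613 to 0.187. Against HY_low it gave 0.163 to 0.501, and the differences of both comparisons lay within 1.92 to 2.17. The fit with the block was not repeated with arrays left out. Of the 2485 tested probe sets under 8 on all arrays, 5 lay higher on all HY_high arrays than on all other arrays, Casp1 among them.

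Macrophages and dendritic cells express Casp1. Their marker list summed to 52.0 to 64.8 over 19 genes in HY_high, against 41.6 to 86.5 in HY_low and 43.5 to 57.0 in OT1, so the groups overlapped. Of the 19 genes 12 were higher in HY_high than in HY_low, with a median log2 difference of 0.20, and 12 were higher than in OT1, with a median of 0.14. Fcgr2b was at 1 on all 12 arrays, and Adgre1, which encodes F4/80, had geometric means of 1.42 in HY_high, 1.42 in HY_low and 1.16 in OT1. Lyz2 and Apoe had 1.97 and 1.40 in HY_high, against 4.57 and 5.61 in HY_low and 1.16 and 1.27 in OT1. Other members had higher means in HY_high than in HY_low. H2-Aa had 2.5 in HY_high, 1.40 in HY_low and 1.10 in OT1, C1qb had 4.05, 2.36 and 1.87, and Cd74 had 6.33, 3.16 and 6.58. The neutrophil list summed to 14.0 to 24.7 in HY_high, 15.0 to 30.3 in HY_low and 14.9 to 24.7 in OT1. Of the NK cell list 3 of 6 genes were measured, and they summed to 5.92 to 11.9 in HY_high, 7.16 to 13.0 in HY_low and 6.82 to 10.4 in OT1. The part of such cells in the Casp1 values was not tested.

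Casp1 lies beside Casp4 and Casp12 on mouse chromosome 9, as the RefSeq annotation orders them. Casp4 encodes the mouse caspase-11 protein, the sensor of cytosolic lipopolysaccharide. Its probe set had 4.15, 1.13, 4.58 and 5.13 in HY_high, against 2.42, 2.16, 1.40 and 1 in HY_low and 1.57, 1.01, 1 and 1.69 in OT1. It was higher on 3 of the 4 HY_high arrays than on any other array, and HY_high array 2 was as low as the other groups. Its log2 difference was 0.98 against HY_low (limma adjusted p = 1, or 0.498 with the block) and 1.34 against OT1 (0.942, or 0.265 with the block). Like Casp1, Casp4 entered the fit through HY_high alone, as its means of 1.64 in HY_low and 1.28 in OT1 lie under the filter at 1.76. Nothing is read from its differences. Casp12, the third gene of the row, had geometric means of 1.36 in HY_high, 1.43 in HY_low and 1.67 in OT1 and did not enter the fit.

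The promoters of Casp1 and Casp4 are printed because these neighbours had their highest values on HY_high arrays, and that of Casp2 as the contrast, a gene that varied with the array number. Each runs from 250 bases before to 50 after a start of the gene in RefSeq (GRCm38.p6, plus strand in all 3), 5′ to 3′, and capitals mark CG dinucleotides. They are chr9:5298267-5298566 for Casp1, chr9:5308599-5308898 for Casp4 (the first of its 2 listed starts) and chr6:42264735-42265034 for Casp2.
Casp1: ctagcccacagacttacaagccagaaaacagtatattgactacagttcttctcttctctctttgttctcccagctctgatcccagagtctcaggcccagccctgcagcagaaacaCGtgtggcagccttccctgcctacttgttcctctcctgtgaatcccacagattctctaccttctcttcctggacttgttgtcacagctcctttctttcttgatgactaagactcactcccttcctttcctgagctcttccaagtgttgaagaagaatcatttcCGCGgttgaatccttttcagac
Casp4: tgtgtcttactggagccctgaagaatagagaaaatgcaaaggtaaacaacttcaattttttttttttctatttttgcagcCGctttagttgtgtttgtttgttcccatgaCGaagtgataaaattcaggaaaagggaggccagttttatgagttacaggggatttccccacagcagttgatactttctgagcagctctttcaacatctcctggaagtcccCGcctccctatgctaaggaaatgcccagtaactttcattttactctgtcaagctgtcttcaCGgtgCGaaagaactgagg
Casp2: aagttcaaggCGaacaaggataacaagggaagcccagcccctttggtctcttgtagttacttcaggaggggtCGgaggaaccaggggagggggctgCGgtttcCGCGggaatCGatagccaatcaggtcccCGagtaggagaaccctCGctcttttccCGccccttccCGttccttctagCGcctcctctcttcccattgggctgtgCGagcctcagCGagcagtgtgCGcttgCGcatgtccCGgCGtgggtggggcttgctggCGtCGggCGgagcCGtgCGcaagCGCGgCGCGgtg
Casp1 holds 3 CG dinucleotides and Casp4 5, against 26 in Casp2. Of the other genes Casp8 holds 5, Casp6 16 and Casp9 28. The Casp8 window, chr1:58802252-58802551, lies inside the gene, whose annotated span begins at 58795233. The median over all 32851 promoters in the table is 7, with 31.4% of them at 3 or fewer and 16.9% at 26 or more, and 94.6% hold at least 1. The counts describe these windows and were not tested against the intensities.

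Casp2 encodes a caspase of the PIDDosome, a complex formed after DNA damage and on surplus centrosomes. Its probe set 99049_at had 13.0, 111, 44.4 and 41.1 on HY_high arrays 1 to 4, against 3.76, 62.8, 22.8 and 19.7 on HY_low arrays and 16.9, 96.1, 38.3 and 24.0 on OT1 arrays. In each group array 1 was lowest and array 2 highest, and the 3 groups overlapped. The geometric means were 40.3 in HY_high, 18.1 in HY_low and 35 in OT1. The log2 difference was 1.16 ± 0.78 in HY_high against HY_low (SE, n = 4 arrays in each group, limma adjusted p = 1, or 0.113 with the block). Within the numbers it was 1.79, 0.82, 0.96 and 1.06, and 9.81% of all tested probe sets were likewise higher within 4 of 4 numbers. HY_low against OT1 gave -0.95 ± 0.78 (limma adjusted p = 1, or 0.328 with the block), lower within 4 of 4 numbers, where 7.38% of all tested probe sets were. HY_high against OT1 gave 0.21 ± 0.78 (limma adjusted p = 1). With the array number as a block the SE was 0.29 in all 3 comparisons. The SE of 0.78 also holds the spread between array numbers.

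The size of the Casp2 difference moved with single arrays, each of which also breaks a pair of the same number. The difference of HY_high against HY_low was 0.40 when HY_low array 1 was left out and 1.76 when HY_low array 2 was. Leaving out HY_high array 2 gave 0.67, and leaving out HY_high array 1 gave 1.70. With arrays numbered 2 or 4 left out in all groups it was 1.27 and 1.19. HY_low against OT1 gave -0.20 without HY_low array 1, -0.47 without OT1 array 2 and -1.55 without HY_low array 2. HY_high against OT1 ran from -0.28 without HY_high array 2 to 0.75 without HY_high array 1. The other Casp2 probe set, 161263_f_at, is of a type that can read related sequences. It had 6.43, 11.7, 13.3 and 9.15 in HY_high, against 4.03, 14.6, 10.7 and 11.2 in HY_low and 2.24, 15.4, 13.5 and 9.62 in OT1. The groups overlapped, array 1 was again the lowest in each, and the difference of HY_high against HY_low was 0.09 ± 0.60 (limma adjusted p = 1). The 2 probe sets therefore gave different sizes for this comparison, and for HY_low against OT1 different signs, with 0.16 on 161263_f_at.

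Casp6 encodes an effector caspase known for cutting nuclear lamins. Its probe set 94458_at had 6.61, 7.21, 7.31 and 8.23 in HY_high, against 2.22, 7.97, 8.41 and 5.64 in HY_low and 2.06, 4.62, 6.64 and 6.52 in OT1. The groups overlapped, and array 1 was the lowest of its group in all 3. The SD on the log2 scale was 0.13 in HY_high, against 0.89 in HY_low and 0.79 in OT1 (n = 4 each). The log2 difference was 0.44 ± 0.52 against HY_low and 0.70 ± 0.52 against OT1 (limma adjusted p = 1 for both). Against OT1 it was positive within 4 of 4 numbers, at 1.68, 0.64, 0.14 and 0.34, as in 10.4% of all tested probe sets. With intensities under 8 set to 8 the differences were -0.01 and 0.01.

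Casp8 encodes the initiator that Fadd recruits to death receptors and that also restrains necroptosis in T cells. Its probe set 102328_at had 5.32, 20.8, 13.4 and 13.1 in HY_high, against 8.75, 18.8, 15.2 and 13.7 in HY_low and 4.84, 8.13, 15.3 and 14.1 in OT1. Array 1 was the lowest of each group and array 2 the highest in HY_high and HY_low, and the groups overlapped. The log2 difference was -0.20 ± 0.51 in HY_high against HY_low, 0.30 ± 0.51 in HY_high against OT1 and 0.50 ± 0.51 in HY_low against OT1 (SE, n = 4 per group, limma adjusted p = 1 for each). With the block the adjusted p was 0.87, 0.789 and 0.722 in that order.

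Casp9 encodes the initiator of the mitochondrial branch, which cytochrome c and Apaf1 activate. It has 4 probe sets here, and they did not move together. Probe set 100366_at had 2.25, 7.02, 2.71 and 5.44 in HY_high, against 8.80, 6.15, 4.31 and 6.99 in HY_low and 1.97, 4.63, 3.25 and 6.21 in OT1. The groups overlapped, with HY_low array 1 the highest value. Its log2 difference was -0.70 ± 0.51 in HY_high against HY_low and 0.79 ± 0.51 in HY_low against OT1 (limma adjusted p = 1 for both, or 0.582 and 0.667 with the block). HY_low exceeded OT1 within 4 of 4 numbers, as in 9.73% of all tested probe sets.

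The Casp9 probe set 100367_g_at, of a type that can read more than 1 transcript, had 3.49, 2.52, 6.84 and 6.94 in HY_high, against 6.63, 8.29, 8.32 and 4.32 in HY_low and 6.16, 3.49, 7.15 and 8.32 in OT1. Its log2 difference was -0.56 ± 0.48 against HY_low and -0.40 ± 0.48 against OT1 (limma adjusted p = 1 for both), and against OT1 it was negative within 4 of 4 numbers, as in 8.74% of all tested probe sets. Probe set 103711_at had 3.79, 1.43, 8.63 and 8.76 in HY_high, against 2.13, 1.79, 6.73 and 5.94 in HY_low and 5.19, 3.60, 8.21 and 5.25 in OT1, with differences of 0.36 ± 0.62 and -0.24 ± 0.62 (limma adjusted p = 1 for both). Its arrays 3 and 4 were the highest of every group. Probe set 100368_at, outside the fit, had 2.14, 2.97, 1 and 1.88 in HY_high, against 1.27, 1.31, 1 and 1 in HY_low and 1.26, 1, 1.01 and 1 in OT1. On HY_high against HY_low 2 of the 4 probe sets were positive and 2 negative, and no pair of groups was apart on any of them.

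**Figure D2:**
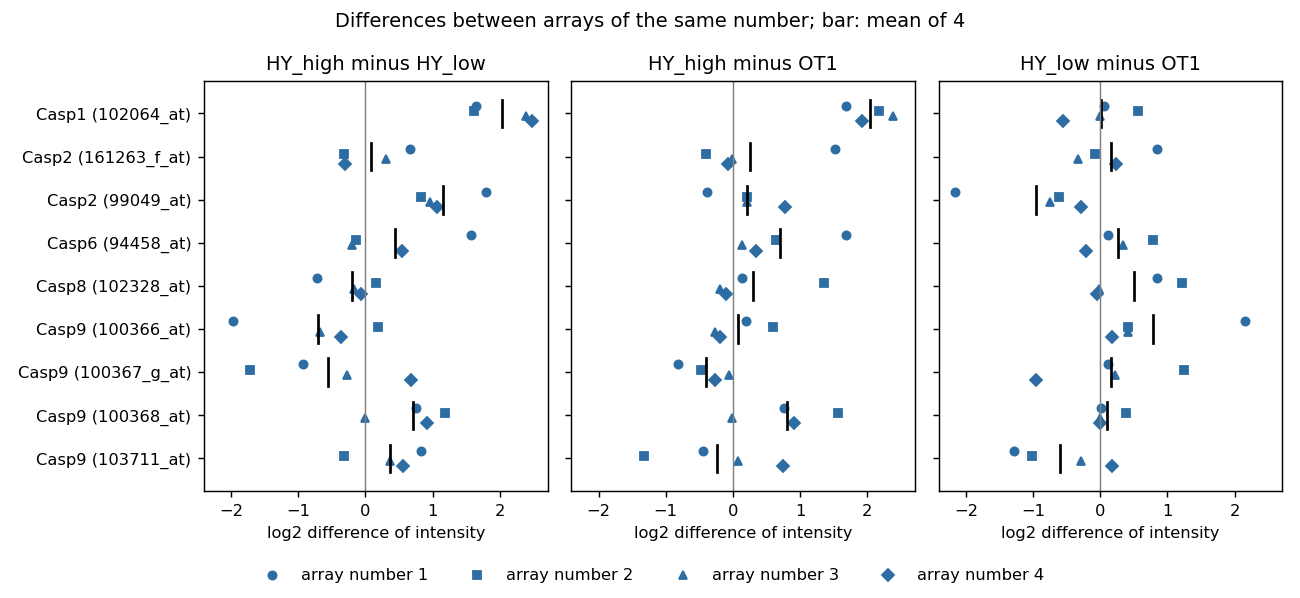
Log2 differences of intensity between arrays of the same number for the 9 caspase probe sets, in HY_high minus HY_low, HY_high minus OT1 and HY_low minus OT1; marker shapes are the array numbers and bars the mean of 4. Casp1 is at 1.61 or above within every number in both comparisons of HY_high and within 0.56 of 0 in HY_low minus OT1, and Casp9 100366_at spans -1.97 to 0.19 in HY_high minus HY_low.

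Over the 12 arrays the caspases fell into differing patterns when the sum of squares of their log2 values was split. Casp1 had 92.3% of it between groups and 3.35% between array numbers. Casp2 99049_at had 15.4% between groups and 79.1% between numbers, and Casp8 had 10.1% and 68.9%. Casp9 103711_at had 8.14% between groups and 75.6% between numbers, while 100367_g_at had 51.8% in neither. Over all tested probe sets the median was 10.7% between groups and 52.8% between numbers, and 84.0% of them had more between numbers than between groups. The split is a description, and for Casp1 it restates the values by which the gene was known.

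**Figure D3:**
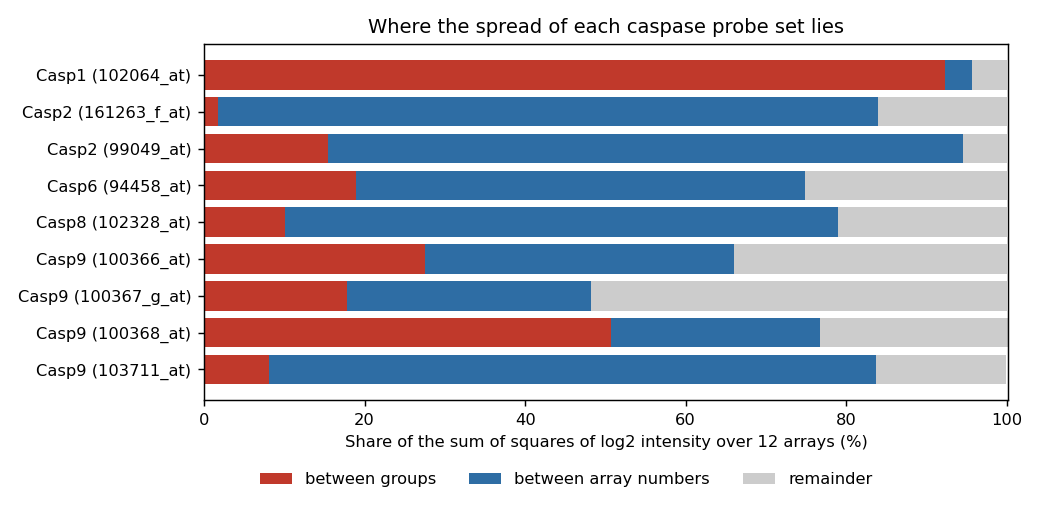
Share of the sum of squares of log2 intensity over the 12 arrays (%) that lies between groups, between array numbers, and in the remainder, for each caspase probe set. Casp1 has 92.3% between groups, and Casp2 99049_at has 79.1% between numbers.

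The array numbers also differed in RNA measures. The Gapdh control probe sets for the 3′ end over those for the 5′ end gave a log2 ratio of 5.55 in HY_high, 5.68 in HY_low and 6.19 in OT1 on arrays numbered 2, where Casp2 99049_at was highest, and 3.01, 3.23 and 2.92 on arrays numbered 4. The actin control probe sets did not follow this order, with 2.03 in HY_high, 2.02 in HY_low and 2.98 in OT1 on arrays numbered 2, 2.14, 2.53 and 2.44 on those numbered 4, and 3.57, 2.58 and 2.58 on those numbered 1. On arrays numbered 1, where Casp2, Casp6 and Casp8 were lowest in each group, the Gapdh ratio was 4.85, 4.64 and 4.55. The share of values at 1 was 8.80%, 8.63% and 8.50% on arrays numbered 1, and 3%, 5.18% and 19% on arrays numbered 2. The part of these measures in the caspase values was not tested.

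For the 3 caspase probe sets with a mean above 8, the probe sets most like them over the 12 arrays were found by Pearson's r of log2 values among 3595 or 3596 probe sets of 1 gene with such a mean. For Casp2 99049_at they were Eps15, Zranb2, Ssr3 and Ap1ar, with r from 0.948 to 0.962. Those of Casp2 161263_f_at were Gas5, Atp13a3, Ddx17 and Laptm5 (0.937 to 0.954), and those of Casp8 were Abcd3, Btg1, Zmynd11 and Strbp (0.888 to 0.928). The lists of the 2 Casp2 probe sets had no gene in common. All points share the array numbers, so the coefficients are given as a description over 12 arrays.

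The genes around the caspases were counted from lists of 83 genes, of which 65 were measured and 54 tested. By limma 0 of the 54 passed an adjusted p of 0.05 in any of the 3 comparisons, beside 0.023% of all tested probe sets in HY_high against HY_low, 0.173% in HY_high against OT1 and 0.023% in HY_low against OT1. An unadjusted p under 0.05 was found for 2 in HY_high against HY_low, 4 in HY_high against OT1 and 1 in HY_low against OT1, beside 2.96%, 4.08% and 2.65% of all tested probe sets. With the block 1 was higher in HY_high against HY_low, where 0.345% of all tested probe sets were called in either direction. In HY_high against OT1 2 were higher, beside 1.36%, and in HY_low against OT1 0 were called, beside 0.092%. The median log2 differences of the 54 genes were -0.04, 0.13 and 0.16 in HY_high against HY_low, HY_high against OT1 and HY_low against OT1, and those of all tested probe sets 0.01, 0.02 and 0.01.

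Among the Bcl2 family, 10 tested genes had a median log2 difference of -0.02 in HY_high against HY_low. Bcl2l11, which codes for the apoptosis inducer Bim, was the gene called with the block. It had 69.0, 134, 71.4 and 87.9 in HY_high, against 20.5, 26.1, 40.9 and 40.6 in HY_low and 21.6, 38.7, 36.0 and 34.8 in OT1, so that HY_high lay apart from both, as in 0.38% of all tested probe sets. The differences were 1.51 and 1.45 (limma adjusted p = 0.815 and 0.346, or 0.0126 and 0.00602 with the block). Its other 2 probe sets gave -1.05 and 0.26 in HY_high against HY_low, near the lower end of the scale. Bcl2 itself, which opposes Bim, had geometric means of 257 in HY_high, 231 in HY_low and 160 in OT1, Mcl1 39.8, 39.1 and 32.8, and the pore-forming Bak1 19.6, 22.4 and 21.4, none of them called.

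The inflammasome and interleukin-1 list had the largest median difference of the 6 lists in HY_high against HY_low, 0.66 over 6 tested genes, 5 of them positive, and 0.86 against OT1. None of its genes had a mean of 8 or more, and 0 were called with limma, with or without the block (without it 0 had an unadjusted p under 0.05 against HY_low and 2 against OT1, beside 2.96% and 4.08% of all tested probe sets). Il18r1, a chain of the interleukin-18 receptor, had 4.53, 2.77, 27.6 and 8.94 on HY_high arrays 1 to 4. With any 1 array left out its difference against HY_low ran from 0.16 to 1.27. Its geometric means were 7.46 in HY_high, 4.32 in HY_low and 3.29 in OT1. Serpinb9, an inhibitor of granzyme B, had 4.55, 2.97 and 2.09, Il18rap 3.40, 2.90 and 2.41, and the decoy receptor Il1r2 1.87, 2.56 and 3.31. Casp4, described above, is in this list as well. The substrates of Casp1 were at the lower end, with Il1b and Il18 below the filter. Of the 6 tested genes Casp4 and Il1rn entered the fit through HY_high alone. Their means lay under 1.76 in HY_low (1.64 and 1.60) and OT1 (1.28 and 1.73). The genes left out by the filter had differences against HY_low of -0.02 (Il1a), -0.45 (Il1b), -0.46 (Il18), -0.68 (Il18bp) and 0.97 (Il1r1). The medians of the list and the rank thus rest in part on the filter, and nothing is read from them.

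Death receptor genes numbered 13 tested, with a median of 0.05 in HY_high against HY_low and 0.18 against OT1. Fasl had the largest difference of the list against HY_low, 1.49, and was not called with the block (adjusted p = 0.335). Its values did not overlap there (2.66 to 8.54 against 1 to 2.48), as in 1.24% of all tested probe sets. HY_high and OT1 overlapped for Fasl, and 11 of its 12 values lay under 8. Tnfrsf1b, a receptor for tumour necrosis factor that lacks a death domain, had 80.8, 18.6, 29.7 and 30 in HY_high, against 29.0, 15.1, 19.5 and 28.2 in HY_low and 21.2, 5.27, 14.6 and 18.7 in OT1. It was called against OT1 with the block (log2 difference 1.36, adjusted p = 0.0265, or 0.942 without it), and the groups overlapped. The adaptors Tradd, Traf2 and Daxx had geometric means of 42.9, 16.1 and 14.0 in HY_high, against 57.2, 15.6 and 15.7 in HY_low and 50.7, 8 and 12.4 in OT1, with no call.

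For the apoptosome and its inhibitors, 8 genes were tested, with a median of -0.16 in HY_high against HY_low and 0.05 against OT1. Cycs, the cytochrome c gene, had geometric means of 11.8 in HY_high, 14.7 in HY_low and 21.0 in OT1. Birc2, an inhibitor of apoptosis protein, had 25.3, 12.8 and 15.3. Htra2, a mitochondrial protease, had 39.8, 47.2 and 45.6, but its other probe set had 37.7, 26.8 and 24.0. Aifm1, the apoptosis-inducing factor gene, had 62.8, 45.7 and 51.6. The differences of HY_high against HY_low moved with single arrays, each of which also breaks a pair of the same number. With any 1 array left out they ran from -0.25 to 0.96 for Aifm1 and from 0.27 to 1.36 for Birc2. For Cycs they ran from -0.93 to 0.49 and for Htra2, on the first probe set, from -0.62 to 0.13. None was called with or without the block.

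Caspase substrates, 16 tested, had a median of -0.16 in HY_high against HY_low and 0.02 against OT1, with 0 called. Dffa, the inhibitor of the caspase-activated nuclease, had geometric means of 34.0 in HY_high, 52.7 in HY_low and 39.3 in OT1. The kinase gene Pak2 had 59.9, 67.0 and 57.1 on the brightest of its 3 probe sets, the adducin gene Add1 234, 205 and 220, and the spectrin gene Sptan1 20.7, 25.1 and 19.6. Casp14, a caspase of skin, had 3.39, 4.27 and 2.82.

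**Figure D4:**
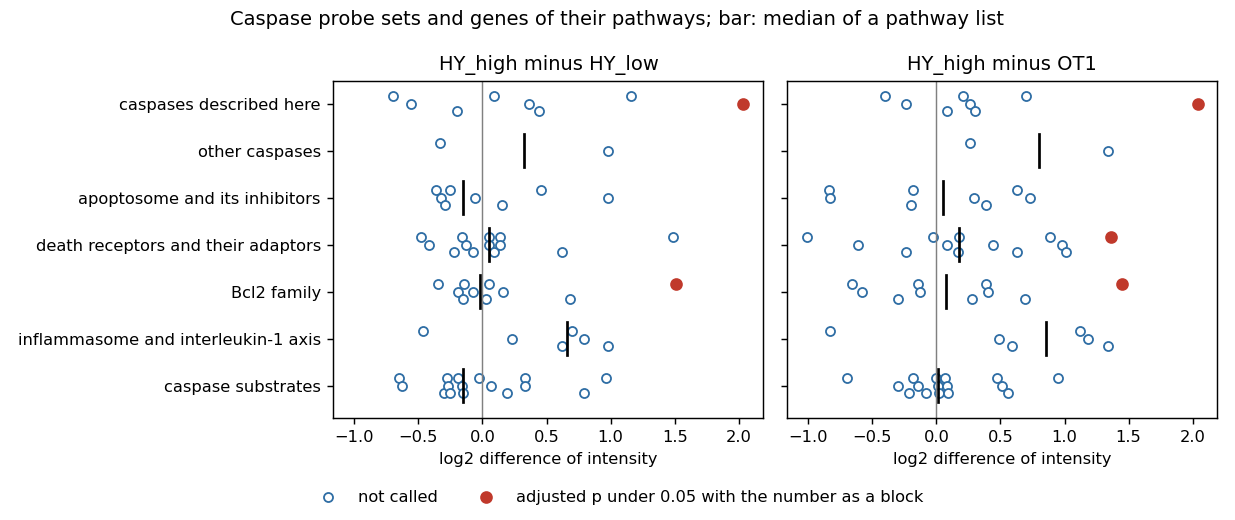
Log2 differences of intensity in HY_high minus HY_low and HY_high minus OT1 for the tested caspase probe sets and for the tested genes of each pathway list; filled points had an adjusted p under 0.05 with the array number as a block, and bars are the medians of the lists. Casp1 and, below it, Bcl2l11 are filled in both panels, and Tnfrsf1b in the right one.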

How the data were processed

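The authors deposited 1 table of intensities on a linear scale for 12488 probe sets on 12 arrays. Their background correction, probe summary and scaling are not stated in the labels or the header. Array medians were alike, so the intensities were used as deposited, on a log2 scale. The 66 control probe sets were left out. Of the others 10833 matched 1 gene in the platform annotation, 396 several and 1193 none, and the probe sets of the 5 caspases were taken by symbol.

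Probe sets whose mean log2 value lay above the 30th percentile, 8695 in number, were fitted with limma 3.58.1 in R 4.3.3. The fit held a mean per group over all 12 arrays (9 residual degrees of freedom), with a trend of the prior variance on intensity. The two-sided p-values were adjusted by the Benjamini-Hochberg method over all tested probe sets, with a threshold of 0.05. The code was tested on simulated data.

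The groups share the array numbers 1 to 4. Deviations from the group means correlated from 0.341 to 0.593 in the 12 pairs of the same number and from -0.401 to 0.163 in the 36 other pairs, and each of the 12 arrays was most like one of its own number. The numbers thus pair the arrays, by the data and not by the labels. A blocked fit on this number left 6 residual degrees of freedom. It is given where it changes a call and for some of the other probe sets. Each SE after a ± sign is from the fit without the block and includes the spread between numbers.

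The members, the pathway and marker lists and the tests were chosen with earlier results of these data known. A gene of a list is represented by its probe set with 1 symbol and the highest mean. All measured caspases were named, together with the 4 genes of highest mean in each other list and each gene called with or without the block. A few further genes are named where the filter or a gap between groups is described. The intensities come without counts, so precision rests on the number of arrays. Alternatives covered the block, the filter, a floor at 8, an offset of 16, normalization, array weights and left-out arrays.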

Additional observations from a re-analysis of the deposited data

Results flagged for a closer look

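In the 27 groups of 4 arrays (9 probe sets in 3 groups), 1 array stood apart from the others of its group. For Casp9 100368_at in OT1 the highest value was 1.26, while the others lay between 1 and 1.01. The gap was 0.957 of the range, above Dixon's 95% critical value for 4 samples, which chance exceeds in about 1 in 20 groups. All 4 values are at the bottom of the scale.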

How the results depend on the processing

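Of 549 recomputed log2 differences of the caspase probe sets, 543 moved by less than 1 SD between replicates, 6 moved by more and 0 called ones changed sign. The 6 came from the floor at 8 or the offset of 16. The replicate block gave 1 caspase call in HY_high against HY_low (Casp1), as did the offset of 16 and array weights (1 each), against 0 otherwise, and 0 to 0 with any 1 array left out. In HY_high against OT1 the 1 caspase call became 0 with the filter at the 50th percentile, the floor at 8, arrays scaled to one median, arrays numbered 2 left out, or arrays numbered 4 left out, and was 0 to 0 with any 1 array left out. Casp1 did not enter the fits with that filter or with the floor, so it was not tested there. Pathway genes called numbered 1 and 2 with the replicate block in HY_high against HY_low and HY_high against OT1. Without the block they numbered 0 in all 3 comparisons, and 0 to 0 with any 1 array left out. The fits with an array left out held no block, so the calls of Casp1 and of pathway genes with the block were not repeated in them. The replicate block changed no other call of a caspase probe set.

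Over all probe sets tested with limma, HY_high against HY_low had 2 calls, which became 30 with the replicate block, 0 without the filter, 4 with the floor at 8, 7 with the offset of 16 or with array weights, and 1 with the stricter filter, with one median, or with arrays numbered 2 or 4 left out, and 1 to 4 with any 1 array left out (4 without HY_low array 1, and 1 without any other HY_high or HY_low array or OT1 array 3 or 4). HY_high against OT1 had 15, which became 118 with the replicate block, 9 without the filter, 8 with the floor, 64 with array weights, and 4 and 3 with arrays numbered 2 and 4 left out, and 6 to 17 with any 1 array left out (6 without HY_high array 3 or OT1 array 2, 7 without HY_high array 2 or OT1 array 4, 9 without HY_high array 4 or OT1 array 3). HY_low against OT1 had 2, which became 8 with the replicate block and 4 with array weights, and 2 to 3 with any 1 array left out. With the floor the cause is the construction, since values under 8 lose their order and probe sets under 8 on all arrays are left out. The stricter filter leaves out dim probe sets, Casp1 among them. Beyond that the cause was not tested for the stricter filter or the other settings. Most caspase values lie near the bottom of the scale, which limits every statement on Casp1 and Casp9.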
